A study of Saccharomyces cerevisiae with 328 samples.

Results

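The 10 genes described here encode the main heat shock chaperones of budding yeast, Saccharomyces cerevisiae: HSP104, HSP78, SSA1, SSA2, SSA4, HSP82, HSC82, HSP42, HSP26 and HSP60. They were taken by name from the 4922 genes with a value, and all 10 passed the filter of a value in at least 80% of strains that left 4499 genes for the tests. PolyA RNA was sequenced from 328 single-gene deletion strains in exponential growth, with 1 library per strain. Each value is a log2 ratio of a deletion strain to the wild type, so a value of 1 is a 2-fold higher mRNA than in wild type. Levels in wild type and the depth of each library are unknown, so the genes are compared by their ratios and not by their amounts. No label gives the ploidy or strain background, and no strain lacks any of the 10 genes.

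Strains were grouped by what the deleted gene is known to do. The classes were strains without a small ribosomal subunit protein (18), a large subunit protein (14), a cochaperone (4: YDJ1, JJJ1, CPR7, PIH1), a ubiquitin or proteasome factor (8), or a factor that brings proteins into the endoplasmic reticulum (4: GET2, GET3, SND3, SEC66). Further classes lacked a mitochondrial function (15), a chromatin factor (17), a Mediator subunit (6), an RNA polymerase II elongation factor (5: RTF1, CDC73, LEO1, DST1, CTK1), a ribosome assembly factor (6), an Elongator or URM1 pathway member (6), a recombination repair factor (8) or a vacuolar sorting factor (14). All strains outside these 13 classes, called other deletions, were the reference of every class. Strains of a class lack different genes, so p-values measure the spread between strains and not between cultures of 1 strain.

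Heat shock proteins hold unfolded proteins in solution, refold them, or pull them out of aggregates. Their genes are switched on by Hsf1, which binds heat shock elements (inverted repeats of GAA), and many also by Msn2 and Msn4, which bind the stress response element AGGGG when the growth-promoting protein kinase A pathway is low. SSA1, SSA2 and SSA4 are cytosolic Hsp70 chaperones, HSP82 and HSC82 are the cytosolic Hsp90 pair, and HSP104 is the disaggregase that works with Hsp70. HSP42 and HSP26 are small heat shock proteins that hold unfolded proteins, HSP78 is the mitochondrial disaggregase, and HSP60 is the mitochondrial chaperonin. SSA2 and HSC82 are known as the copies expressed at high level without stress, SSA4 as the copy expressed mainly under stress.

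The upstream regions are shown because they hold the elements that Hsf1, Msn2 and Msn4 are known to bind. The pairs of genes are sorted later by AGGGG alone. In the 500 bases before the start codon (RefSeq annotation, R64 genome), the element GAANNTTCNNGAA or its reverse complement TTCNNGAANNTTC was found on either strand in 6 of the 10 genes, against 1.48% of 6006 genes. AGGGG or its reverse complement CCCCT was found in 7 of the 10, against 34.1% of the same genes; the motifs did not overlap in the stretches printed here. HSP104, HSP78, SSA1 and HSP42 held both motifs, SSA2 and HSP60 the first one alone, HSP82, SSA4 and HSP26 the second alone, and HSC82 neither of these letters. The stretches below read 5′ to 3′ on the strand of the gene, with the motif in capitals; where 2 matches overlap, the capitals cover both.
HSP104 (chrXII:88306-88353, plus strand): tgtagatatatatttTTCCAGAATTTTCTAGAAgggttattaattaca
HSP78 (chrIV:974458-974505, minus strand): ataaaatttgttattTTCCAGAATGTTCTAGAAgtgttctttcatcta
SSA1 (chrI:141763-141810, minus strand): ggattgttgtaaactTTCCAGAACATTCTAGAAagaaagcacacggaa
HSP42 (chrIV:806363-806410, plus strand): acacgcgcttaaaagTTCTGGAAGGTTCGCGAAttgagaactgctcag
SSA2 (chrXII:97691-97733, minus strand): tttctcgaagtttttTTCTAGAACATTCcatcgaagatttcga
HSP60 (chrXII:665185-665227, minus strand): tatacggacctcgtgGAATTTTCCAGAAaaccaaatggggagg
HSP26 (chrII:381689-381723, plus strand): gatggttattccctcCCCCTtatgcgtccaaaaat
SSA4 (chrV:364395-364429, plus strand): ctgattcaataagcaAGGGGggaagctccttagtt
HSP82 (chrXVI:98755-98789, minus strand): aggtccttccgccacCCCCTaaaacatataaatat
A match is a run of letters and not a measured binding site, and a gene without a match may hold a form of the element that these letters do not cover.

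The mRNA of the deleted gene itself was used to check the labels. The check is incomplete, since the counting of reads shared by near-identical genes is not stated. A value that was not lowered therefore does not by itself show a wrong label. Of 256 strains whose deleted gene was tested, 49 had it empty, and 49 had it at -0.5 or above. Among the strains named below these were the libraries labelled RPS1A, RPS16A, RPS10B, RPS19B, CTK1, GET2, UBP3, URM1, VPS24, PEP8, GUP1 and THP1, which are written as labelled libraries. Strain medians over all genes ran from -0.45 to 0.31, and 17 strains had a chromosome shifted by over 0.4. A mixture model on the values of the other genes split the libraries into sets of 80, 73, 96 and 79 strains, for which no label gives a name. These sets, called library groups 1 to 4 here, held 38.99% of the variance; what sets them apart was not tested.

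Across all strains the 10 genes sat at different distances from wild type. Of their 3278 values, 5.67% were above 1, against 4.40% of the values of all 4922 genes, and 373 (11.4%) were below -1, against 7.87%. HSP42 had the highest median, 0.61, followed by HSP78 at 0.26. HSP82, HSP104, SSA4 and SSA1 had medians of -0.09, -0.12, -0.14 and -0.17, closer to each other than the spread of any of them and next to the median of all genes, -0.12. HSP26 and HSP60 followed at -0.49 and -0.51, then HSC82 at -0.63 and SSA2 at -0.95. Every strain shares the wild type reference, so a shift common to all strains and a value particular to that reference cannot be told apart. Centring each strain on its median moved the medians of HSP104 and HSP82 to 0.0054 and 0.064, above zero.

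**Figure D1:**
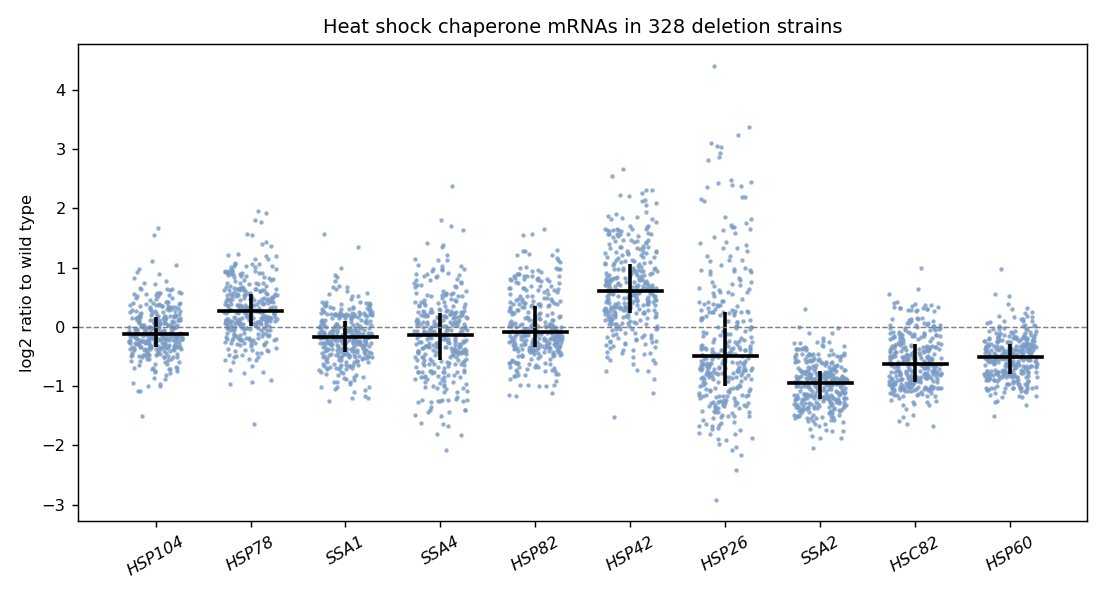
The plot shows the log2 ratio to wild type (vertical axis) of each of the 10 genes in each strain (points), with the median (horizontal line) and the quartiles (vertical line). HSP42 lay mostly above wild type, with a median of 0.61, SSA2 below it in 327 of 328 strains, and HSP26 spread from -2.92 to 4.41.

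Of the small heat shock protein genes, HSP26 varied most of the 10 members, with an SD of 1.13, and HSP42 had 0.67, as did SSA4. HSP26 (YBR072W, chromosome II, 382030 to 382674) ran from -2.92 in the strain without RPI1 to 4.41 in the strain without SLA1, an endocytosis and cortical actin adaptor. That SD lay at the 99.7th percentile of genes tested, whose median SD was 0.473. It was above 1 in 41 strains and below -1 in 81. The next highest values were 3.38 without INO2, an activator of phospholipid synthesis genes, and 3.24 without KRE28, a kinetochore protein. The next lowest were -2.42 in the library labelled VPS24, of the endosomal sorting machinery, and -2.16 without RPS18B. HSP42 (YDR171W, chromosome IV, 806621 to 807748) was above wild type in 281 of 328 strains, above 1 in 87 and below -1 in 2. It was highest without CHO2, a methyltransferase of phosphatidylcholine synthesis (2.66), in the library labelled THP1, an mRNA export factor (2.55), and without CDC73 of the Paf1 elongation complex (2.31). It was lowest in the library labelled GUP1 (-1.51) and without RPS27B (-1.12) and GPB2 (-0.87). The strains without RPS18B and RPS27B belong to the class without a small subunit protein, tested later, where neither HSP26 nor HSP42 passed.

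The disaggregase genes HSP104 and HSP78 varied less, and shared their highest and lowest strains in part. HSP104 (YLL026W, chromosome XII, 88623 to 91349) had a median of -0.12 and an SD of 0.41, and lay past 1 in either direction in 9 strains: 4 above and 5 below. It was highest without CHO2 (1.68), YDJ1 (1.56) and SLA1 (1.12), and lowest without RPS27B (-1.51), YJL218W (-1.09) and RPS29A (-1.07). HSP78 (YDR258C, chromosome IV, 971808 to 974243) was above wild type in 246 strains. It was highest without CDC73 (1.96), VPS64 (1.93) and CHO2 (1.80), and lowest without RPS27B (-1.64), in the library labelled RPS1A (-0.97) and without ASC1 (-0.93). Asc1, kept among the other deletions here, is a protein that sits on the small ribosomal subunit. All 3 of the lowest HSP78 libraries and 2 of the 3 lowest HSP104 libraries were thus labelled as lacking a protein of that subunit.

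Among the cytosolic Hsp70 genes, SSA1 and SSA4 moved around wild type while SSA2 was below it almost throughout. SSA1 (YAL005C, chromosome I, 139503 to 141431) ran from -1.26 without RPS27B to 1.57 without YDJ1, the main cytosolic Hsp40 partner of Hsp70, with a median of -0.17. Its next highest strains lacked CHO2 (1.36) and SIN3, of a histone deacetylase complex (1.00), and its next lowest lacked PIH1 (-1.21) and RPL19A (-1.19). SSA4 (YER103W, chromosome V, 364589 to 366517), measured in 326 strains, had a median of -0.14 and an SD of 0.67, and was above 1 in 14 strains and below -1 in 33. It was highest without CHO2 (2.38), KRE28 (1.80) and SIN3 (1.70), and lowest without RPL19A (-2.07), ERS1 (-1.83) and CTF18 (-1.82). SSA2 (YLL024C, chromosome XII, 95566 to 97485) was below wild type in 327 of 328 strains and below -1 in 44.8% of them. The strain without YDJ1 was the exception, at 0.29, followed by those without YJL218W (-0.0020) and RPN4, the activator of proteasome genes (-0.021). SSA2 was lowest without RFU1 (-2.04), RPL19A (-1.88) and CSF1 (-1.87).

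The Hsp90 pair and HSP60 moved most with the library groups. HSP82 (YPL240C, chromosome XVI, 96496 to 98625) had medians of -0.17, -0.22, -0.20 and 0.65 in the 4 library groups, which held 45.9% of its variance. HSC82 (YMR186W, chromosome XIII, 632355 to 634472) had medians of -0.87, -0.54, -0.080 and -0.92 in the same groups, which held 68.4% of its variance. HSP60 (YLR259C, chromosome XII, 663284 to 665002) had medians of -0.32, -0.64, -0.83 and -0.27, with 47.1%. The fourth group was thus high for HSP82 and low for HSC82, and the third was high for HSC82 and low for HSP60. The shares of the other members were 0.93% for HSP104, 6.74% for HSP78, 8.36% for SSA1, 17.1% for HSP26, 18.9% for HSP42, 19.4% for SSA4 and 32.02% for SSA2.

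Single strains of these 3 genes stood out as follows. HSP82 was highest without CHO2 (1.65), KRE28 (1.56) and YDJ1 (1.55), and lowest in the library labelled URM1 (-1.16) and without RPL8A (-1.16) and ASF1, a histone chaperone (-1.11). HSC82 was highest without RPN4 (0.99), RTR1 (0.63) and AIM29 (0.56), and lowest without SAC1, a phosphoinositide phosphatase (-1.67), RFU1 (-1.64) and ASF1 (-1.60). HSP60 was highest without CDC73 (0.97), CHO2 (0.55) and SPT3, a subunit of the SAGA coactivator (0.52), and lowest without RPL19A (-1.50), DSD1 (-1.32) and JJJ1 (-1.26). HSP82 and HSP60 thus share CHO2 among their 3 highest strains, while the highest HSC82 strains are other ones.

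The near-identical copies were set against each other in the same libraries. SSA1 and SSA2 are identical at 96.4% of aligned coding bases, and 57.9% of the 50-base stretches of SSA1 also occur in SSA2. Reads of that length cannot be assigned to 1 of the 2 genes there, so their separate values are uncertain; no source used here says how the counting treated such reads. The SSA1 ratio exceeded the SSA2 ratio in 315 of 328 strains, with a median difference of 0.79 (-0.67 to 2.07). HSP82 and HSC82 are identical at 91.7% of bases and share 6.39% of such stretches. The HSP82 ratio exceeded the HSC82 ratio in 256 of 328 strains, with a median difference of 0.50 and with medians of 0.73, 0.36, -0.12 and 1.55 in the 4 library groups. In the third library group the order was thus turned, with HSP82 above HSC82 in 30 of 96 strains. SSA4 shares no 50-base stretch with SSA1 or SSA2, and exceeded SSA2 in 289 of 326 strains with a median difference of 0.73. In the 4 library groups the median of SSA4 minus SSA2 was 0.60, 0.43, 0.64 and 1.62. That of SSA1 minus SSA2 was 0.49, 0.62, 0.83 and 1.25.

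The 7 genes with AGGGG upstream had positive correlations with each other across strains; SSA2 and HSC82 had weak ones with them in the deposited values, and all were positive with the library group means subtracted. Correlations are given as a description over 328 strains (326 for SSA4) that share the wild type reference, the library groups and unknown depths. Pearson's r was positive in 37 of 45 pairs, with a median of 0.47. All 21 pairs among HSP104, HSP78, SSA1, SSA4, HSP82, HSP42 and HSP26 were positive, from 0.45 for HSP104 with HSP82 to 0.76 for HSP104 with SSA1, with a median of 0.60. The 21 pairs of 1 of these genes with SSA2, HSC82 or HSP60 ran from -0.20 to 0.65 with a median of 0.073, and the 3 pairs among SSA2, HSC82 and HSP60 had a median of 0.19. HSP60 was the nearest of the 3 to the 7 genes: its r was 0.65 with HSP82 and 0.35 to 0.50 with the rest. SSA2 and HSC82 had r of -0.20 to 0.22 with the 7 genes, and 0.43 with each other.

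**Figure D2:**
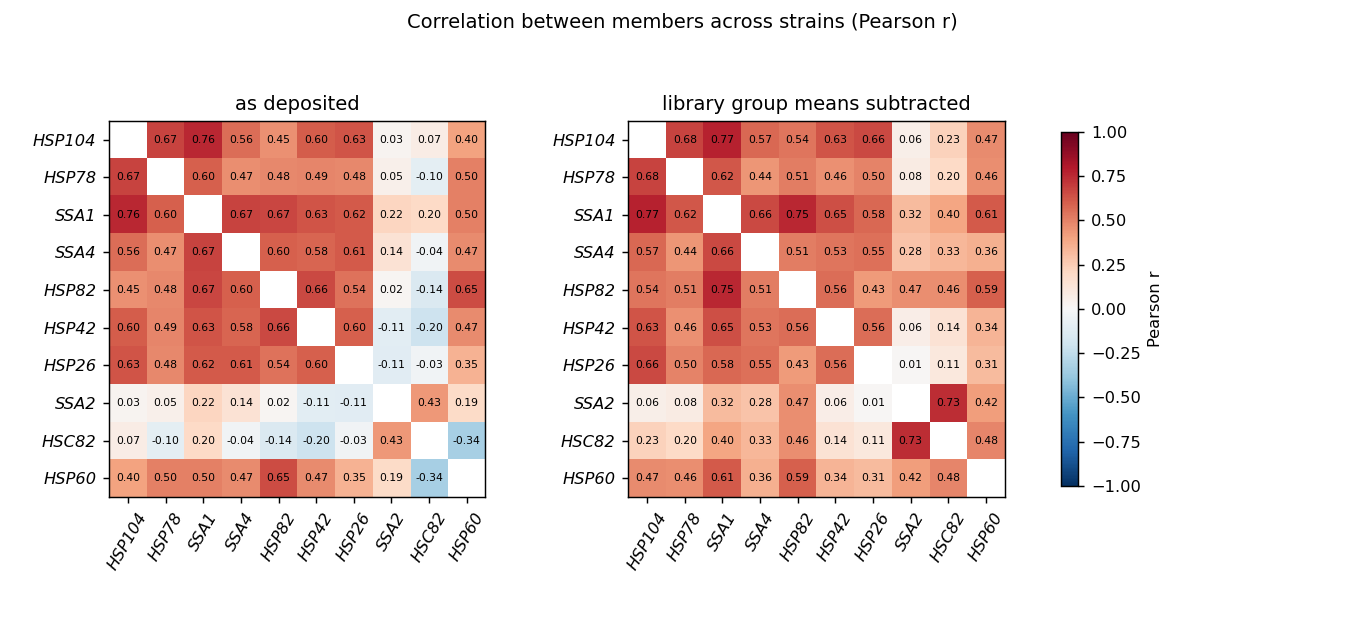
Each cell gives Pearson's r (colour and number) between a pair of the 10 genes across strains, from the deposited ratios (left) and after subtracting the mean of each library group (right). The upper left block of 7 genes holds r of 0.45 to 0.76 as deposited, and all 45 pairs are positive after the subtraction.

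With the library group means subtracted, all 45 pairs were positive, and r rose to 0.73 between SSA2 and HSC82 and to 0.47 between SSA2 and HSP82. HSC82 with HSP60 had r of -0.34 as deposited and 0.48 after the subtraction. The median of the 21 pairs with AGGGG in both genes was 0.56 after it, against 0.32 for the 21 pairs with AGGGG in 1 of them and 0.48 for the 3 pairs with it in neither. Within the first deposited table (255 strains) 37 pairs were positive and within the second (73 strains) 34. The subtraction left the strain medians in the values. With each strain centred on its median instead, 38 of 45 pairs were positive, with a median of 0.38. The 21 pairs with AGGGG in both genes then ran from 0.32 to 0.73. Those with it in 1 gene ran from -0.19 to 0.51. How many pairs of other genes were positive was not tested.

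Other genes that followed each member were looked up over all genes tested, with strains centred on their medians. HSP26 followed TDH1, a glyceraldehyde-3-phosphate dehydrogenase (r = 0.76), YNR034W-A (0.69, 309 strains) and GPG1 (0.62, 305 strains). HSP42 followed PNC1, the nicotinamidase (0.65), MSC1 (0.56) and RTC3 (0.55), and SSA4 followed TDH1 (0.54), RTC3 (0.51) and PGM2, a phosphoglucomutase (0.50). HSP104 followed TSL1, a subunit of the trehalose synthase (0.60), YFR052C-A (0.58) and the hexokinase gene HXK1 (0.58). SSA1 followed HXK1 (0.66), YFR052C-A (0.66) and the glucokinase gene GLK1 (0.64). TDH1 was thus shared by HSP26 and SSA4, RTC3 by HSP42 and SSA4, and HXK1 by HSP104 and SSA1.

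HSC82 followed the glycolytic genes PFK1 and PGK1 (0.90 each) and the translation elongation factor gene EFT2 (0.90), and SSA2 followed the pyruvate kinase gene CDC19 (0.84), the ribosomal protein gene RPS15 (0.80) and TDH3 (0.79). HSP82 followed CPR3, a mitochondrial cyclophilin (0.62), STI1, which links Hsp70 to Hsp90 (0.61), and the superoxide dismutase gene SOD1 (0.59). HSP60 followed the Hsp90 cochaperone genes CPR6 and AHA1 (0.56 each) and its own partner HSP10 (0.55). HSP78 had the loosest neighbours: YNR034W-A (0.42, 309 strains), the polyubiquitin gene UBI4 (0.42) and LAP4, a vacuolar aminopeptidase (0.41). With the library group subtracted, PFK1 fell to 0.58 with HSC82 and CPR3 to 0.46 with HSP82, while TDH1 with HSP26 had 0.74. SOD1 fell to 0.37 with HSP82, and CPR6, AHA1 and HSP10 fell to 0.39, 0.40 and 0.38 with HSP60. The neighbours of HSP78 had 0.44 to 0.48 after the subtraction, and were then no longer the loosest.

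Strains without a small ribosomal subunit protein had lower mRNA of 5 of the 10 chaperone genes than other deletions, and none was higher. The disaggregases HSP78 and HSP104, the Hsp70 gene SSA1, the Hsp90 gene HSP82 and the chaperonin HSP60 fell. By limma with Benjamini-Hochberg adjustment, 1.67% of all genes tested were lower (75 of 4499) and 18 higher, 2.07% in either direction. The median difference of the 10 genes was -0.41 against -0.07 over all genes tested. HSP78 ran from -1.64 to 0.33 with a median of -0.46 in strains without a small subunit protein, and from -0.93 to 1.93 with a median of 0.26 in other deletions. Its difference was -0.69 ± 0.11 (SE; limma adjusted p = 1.01e-05; 16 of 18 strains below the median of other deletions). The class thus overlaps other deletions; the strain without RPS27B (-1.64) and the library labelled RPS1A (-0.97) lay below the lowest of those strains, the one without ASC1 (-0.93).

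HSP104 ran from -1.51 to 0.12 with a median of -0.50 in strains without a small subunit protein, and from -1.09 to 1.68 with a median of -0.14 in other deletions. The difference was -0.48 ± 0.10 (SE; limma adjusted p = 0.000648), with 17 of 18 strains below the median of other deletions. SSA1 ran from -1.26 to 0.14 with a median of -0.69 in the class, and from -1.17 to 1.36 with a median of -0.18 in other deletions. Its difference was -0.46 ± 0.10 (SE; limma adjusted p = 0.00178; 16 of 18 strains). For both genes all but 1 strain of the class lay within the range of other deletions, and the library labelled RPS16A was the highest of the class.

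HSP60 ran from -1.25 to -0.36 with a median of -0.94 in strains without a small subunit protein, and from -1.32 to 0.55 with a median of -0.51 in other deletions. The difference was -0.36 ± 0.08 (SE; limma adjusted p = 0.00565; 15 of 18 strains). RPS28B lies within 5 reading frames of HSP60, and HSP60 also passed the test without the strains deleted near a member. HSP82 ran from -0.98 to 0.47 with a median of -0.62 in the class, and from -1.01 to 1.65 with a median of -0.086 in other deletions. Its difference was -0.45 ± 0.12 (SE; limma adjusted p = 0.0302; 14 of 18 strains). The HSP82 call was the weakest of the 5: it was lost in 3 of the 10 other settings and without any 1 of 7 strains (labelled RPS11A, RPS23A, RPS4B, RPS28B, RPS29A, RPS10B or RPS30B; adjusted p 0.0529 to 0.0956).

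**Figure D3:**
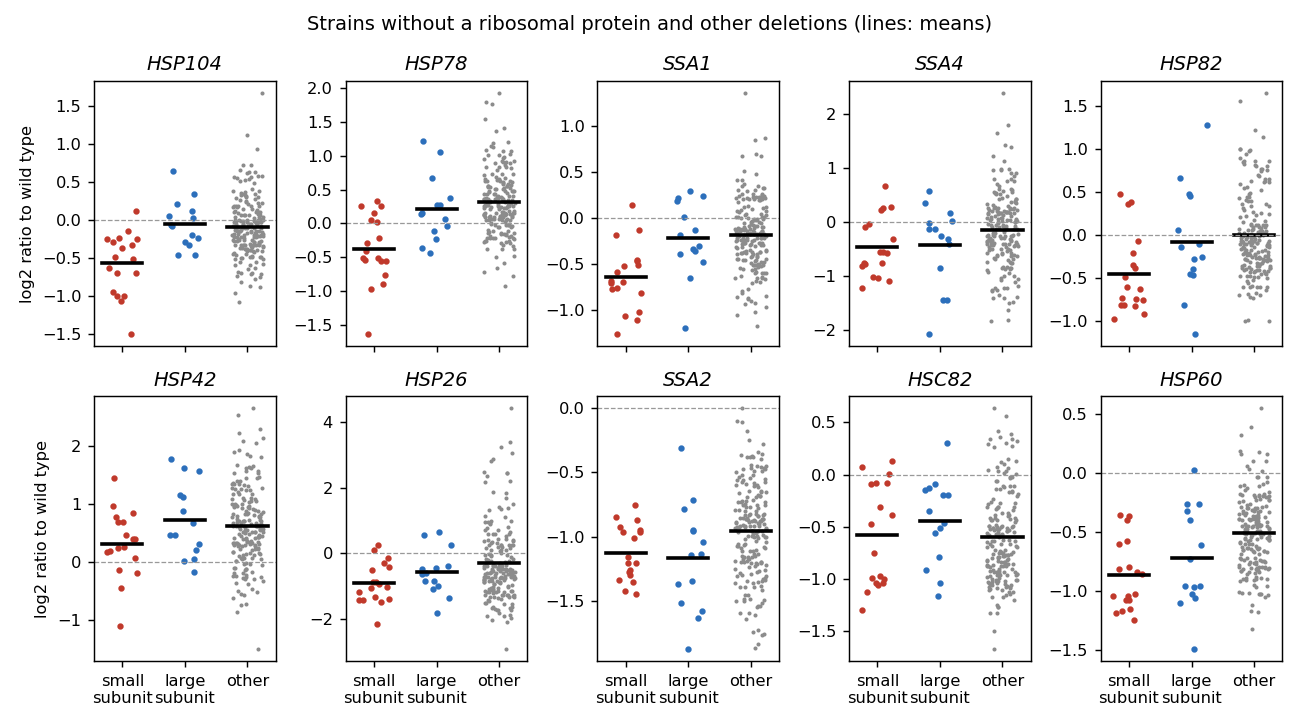
Each panel shows 1 gene, with the log2 ratio to wild type on the vertical axis and 1 point per strain for strains without a small subunit protein (18), without a large subunit protein (14) and other deletions; lines are means. HSP78 and HSP104 show the small subunit strains below the other groups, with means of -0.38 and -0.57, while HSC82 has means of -0.58 in the small subunit strains and -0.60 in other deletions.

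The other 5 members did not pass the test in this class. HSP26 had a mean of -0.89 ± 0.63 (SD, n = 18) in strains without a small subunit protein and -0.28 ± 1.14 (SD) in other deletions, a difference of -0.61 ± 0.27 (SE; limma adjusted p = 0.189). HSP42 differed by -0.31 ± 0.16 (adjusted p = 0.287), SSA4 by -0.31 ± 0.16 (0.281) and SSA2 by -0.17 ± 0.09 (0.285), also by limma. HSC82 differed by 0.02 ± 0.11 (0.947), and its sign turned with the library group as a term (-0.18). These intervals leave room for falls of the size seen in SSA1 for HSP26, HSP42 and SSA4, so a lack of change was not shown.

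Strains of the class differed among themselves. The strains without RPS25A, RPS27B, RPS4B and RPS18B had all 10 members below the median of other deletions. The libraries labelled RPS16A, RPS9B, RPS19B and RPS1A had 2, 4, 4 and 5 of 10 below it. RPS16A and RPS1A were also among the libraries whose deleted gene was not lowered (0.76 and 0.067), as were RPS10B (0.51) and RPS19B (-0.36). The fourth library group held RPS9B, RPS16A and RPS19B, and also RPS27B. Leaving out each library whose deleted gene stayed at -0.5 or above, the members' median difference was -0.51 in place of -0.41; without RPS16A, RPS9B, RPS19B or RPS1A alone it was -0.45, -0.44, -0.44 or -0.42. The call of HSP104, HSP78, SSA1 and HSP60 held in all 10 other settings and without any 1 of the 18 strains.

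Within each of the 4 library groups, which held 2, 3, 9 and 4 of the strains without a small subunit protein, all 5 genes were lower in that class than in other deletions, as were HSP26, HSP42, SSA4 and HSC82, which did not pass the test. The HSP78 differences were -0.58, -0.53, -0.58 and -0.92, and the HSP104 differences were -0.57, -0.76, -0.42 and -0.46. SSA1 had -0.60, -0.63, -0.55 and -0.30, and HSP82 had -0.55, -0.42, -0.47 and -0.33. HSP60 had -0.47, -0.42, -0.18 and -0.23, the smallest in the third group, which held 9 of the 18 strains. With the library group as a term the differences were -0.63 for HSP78, -0.48 for HSP104, -0.49 for SSA1, -0.43 for HSP82 and -0.26 for HSP60, and all 5 passed the limma test, against a background of 2.31% of genes lower.

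Lists of other chaperone genes and regulators were read beside the 2.07% of all genes tested that passed in either direction. At an unadjusted limma p under 0.05 were 7 of 22 cochaperone genes and 2 of 10 mitochondrial chaperone genes. The same held for 4 of 11 endoplasmic reticulum chaperone genes and 2 of 4 regulators, against 18.9% of all genes tested. Of 22 cochaperone genes of Hsp70 and Hsp90, 1 fell and none rose: SIS1, an Hsp40, with -0.24 ± 0.42 (SD, n = 18) against 0.14 ± 0.43 in other deletions, a difference of -0.38 (limma adjusted p = 0.0364). With the library group as a term, SIS1 did not pass (-0.19, adjusted p = 0.125) and STI1 did (-0.26, 0.0267). Of 10 mitochondrial chaperone genes tested, HSP10 fell (-0.30, adjusted p = 0.0358), the partner of HSP60. Of 11 endoplasmic reticulum chaperone genes, KAR2, the Hsp70 of that compartment (-0.36, adjusted p = 0.0113), and PDI1, a disulfide isomerase (-0.29, adjusted p = 0.000721), fell. Of 4 regulators tested, RPN4 fell (-0.47, adjusted p = 0.0297) but did not pass with the library group as a term (-0.35, 0.0844), while the mRNA of HSF1 differed by -0.13 (adjusted p = 0.685).

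By the same limma fit 0 genes passed in 4 further lists. These were 7 other small heat shock, Hsp70 and related genes (1 at an unadjusted p under 0.05), 6 ribosome-associated chaperone genes (1), 14 genes of the CCT chaperonin and prefoldin (3) and 14 targets of Msn2 and Msn4 (8), against 18.9% of all genes tested at an unadjusted p under 0.05. The median difference of the Msn2 and Msn4 targets was -0.24, against -0.07 over all genes tested. The ribosome-associated Hsp70 genes SSB1 and SSB2 differed by 0.0016 and 0.073.

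Strains without a large subunit protein had 0 of 10 members called in either direction by limma, against 0.244% of all genes tested, and 2 at an unadjusted p under 0.05 (SSA2 and HSP60), against 9.42% of all genes. The direct contrast asked whether both ribosomal classes differ. HSP104 averaged -0.57 in strains without a small subunit protein and -0.05 in strains without a large subunit protein, a difference of -0.52 ± 0.14 (SE; limma adjusted p = 0.0554). HSP78 averaged -0.38 in the small subunit class and 0.22 in the large subunit class, a difference of -0.59 ± 0.16 (adjusted p = 0.0891). HSP78 lies on chromosome IV, which was shifted by 0.83 in the strain without RPP1A, where HSP78 was 1.23, the highest of the large subunit class. The direct contrast was not run without strains with a shifted chromosome. In this contrast 0 of 10 members passed, against 0.267% of all genes, and 4 had an unadjusted p under 0.05, against 8.65% of all genes. With the library group as a term 2 passed, HSP104 (-0.52, adjusted p = 0.0242) and HSP78 (-0.60, adjusted p = 0.0286), against 0.689% of all genes lower. A difference between both ribosomal classes was thus not established for the 10 genes without that term.

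**Figure D4:**
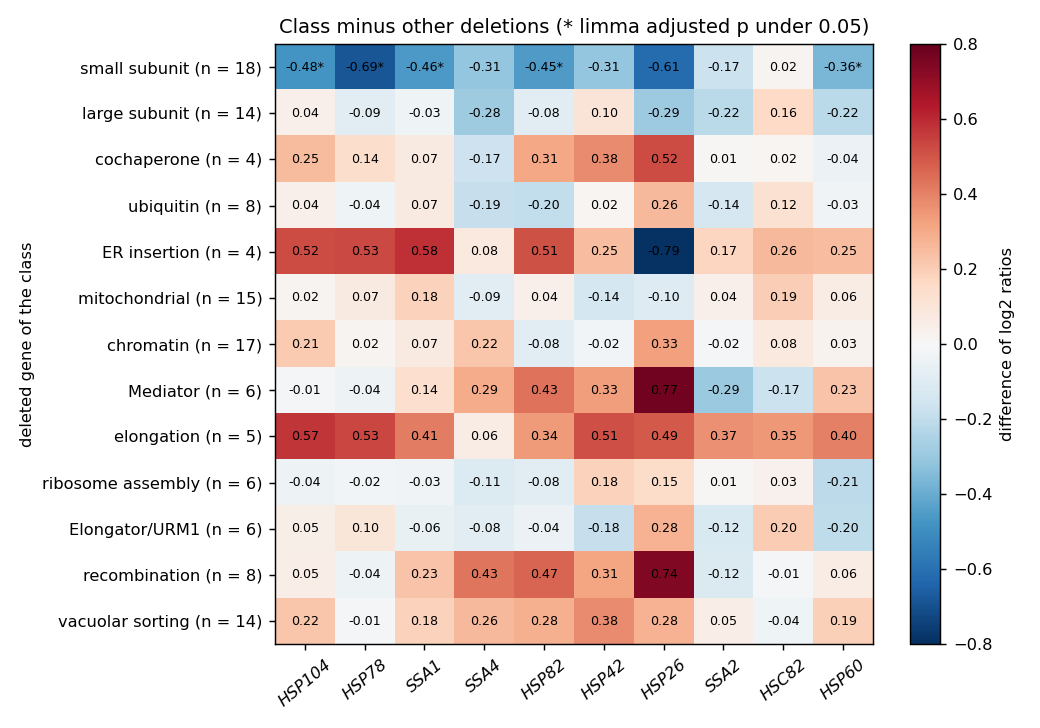
Rows are the 13 classes of deleted gene and columns the 10 genes; colour and number give the difference of mean log2 ratio, class minus other deletions, and an asterisk a limma adjusted p under 0.05. The 5 asterisks are all in the small subunit row; the elongation row is positive throughout, from 0.06 to 0.57.

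In each of the remaining 11 classes 0 of 10 members passed the limma test. The share of all genes called in either direction was 0.0222% for cochaperone, ubiquitin, mitochondrial and recombination strains, 0.0667% for Mediator and elongation strains, 0.0445% for ribosome assembly strains, 0.0889% for vacuolar sorting strains and 0.00% for endoplasmic reticulum insertion, chromatin and Elongator or URM1 strains. Members at an unadjusted p under 0.05 numbered 5 in the elongation class, 4 each in the endoplasmic reticulum insertion and vacuolar sorting classes, 1 each in the chromatin, Mediator and recombination classes and 0 in the other 5. Over all genes tested, that share was 6.13% in the elongation class, 3.13% in the endoplasmic reticulum insertion class, 6.33% in the vacuolar sorting class, 7.11% in the chromatin class, 8.25% in the Mediator class and 11.8% in the recombination class. Differences of small classes have wide errors, so these counts do not show that the genes stayed the same.

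Strains without an elongation factor had all 10 differences of means above zero, with a median of 0.41 against -0.02 over all genes tested. For HSP26 and SSA4, 3 of the 5 libraries nevertheless lay below the median of other deletions. Their class medians were -0.81 and -0.18, against -0.50 and -0.14 in other deletions. The HSP26 value without CDC73 was 3.11. HSP104 was 1.04 without CDC73, 0.89 in the library labelled CTK1 (own mRNA at 0.81), 0.31 without RTF1, 0.11 without LEO1 and 0.044 without DST1, against a median of -0.14 in other deletions. Its difference was 0.57 ± 0.18 (SE; limma adjusted p = 0.403). HSP78 was 1.96, 1.19, 0.54, 0.44 and 0.091 in the libraries labelled CDC73, CTK1, RTF1, LEO1 and DST1, a difference of 0.53 ± 0.21 from other deletions (adjusted p = 0.672). HSP60 was 0.97, 0.23, -0.45, -0.57 and -0.69 in the same order, a difference of 0.40 ± 0.16 (adjusted p = 0.667). The strain without CDC73 was the highest and that without DST1 the lowest for each of these 3 genes. With the library group as a term HSP60 passed the test (0.48 ± 0.11, adjusted p = 0.0284), against 0.111% of all genes higher.

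Strains without a factor of endoplasmic reticulum insertion had 9 of 10 differences above zero, and HSP26 as the exception. SSA1 was 0.60 without GET3, 0.56 without SEC66, 0.53 without SND3 and -0.088 in the library labelled GET2 (own mRNA at -0.035), against a median of -0.18 in other deletions, a difference of 0.58 ± 0.20 (SE; limma adjusted p = 0.958). HSP78 lay between 0.74 and 0.96 in all 4 strains, with a mean of 0.84 ± 0.10 (SD, n = 4) against 0.31 ± 0.47 (SD) in other deletions (difference 0.53 ± 0.23, adjusted p = 1.00). HSP26 was -0.60, -1.32, -0.93 and -1.42 in the libraries labelled GET3, SEC66, SND3 and GET2, against a median of -0.50 in other deletions. HSP78 thus was above the other deletions' median in each library and HSP26 below it, with neither past the threshold.

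The 4 cochaperone strains went opposite ways. The strain without YDJ1 had 7 members above 1: HSP26 at 3.06, HSP42 at 2.25, SSA1 and HSP78 at 1.57, HSP104 at 1.56, HSP82 at 1.55 and SSA4 at 1.14. In that library 4.24% of all genes were above 1. The strain without CPR7, an Hsp90 cyclophilin, had HSP42 at 1.56 and HSP26 at 1.20, and SSA2 at -1.57. In the CPR7 library 7.52% of all genes were above 1 and 7.45% below -1. The strain without JJJ1, a cytosolic J-domain protein of ribosome assembly, had 5 members below -1: HSP26 at -1.79, SSA4 at -1.67, SSA2 at -1.52, HSP60 at -1.26 and SSA1 at -1.01. In that library 7.39% of all genes were below -1, and SSA2 was below -1 in 44.8% of all strains. The strain without PIH1, of the R2TP complex that works with Hsp90, had HSP26 at -1.50, SSA4 at -1.27 and SSA1 at -1.21. In the PIH1 library 8.44% of all genes were below -1. SSA1 lies on chromosome I, whose median was shifted by -0.46 in that library. The class mean therefore hides values of opposite sign, and each strain has 1 library. The strains also differ in library group: YDJ1 was in group 1, CPR7 in group 4, and JJJ1 and PIH1 in group 2. Over all strains of groups 1, 4 and 2 the HSP26 medians were -0.78, 0.26 and -0.87. HSP42 had 0.63, 1.27 and 0.52 there, and SSA2 -0.63, -1.28 and -0.99. The part of the library group in the values of these 4 strains was not tested.

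**Figure D5:**
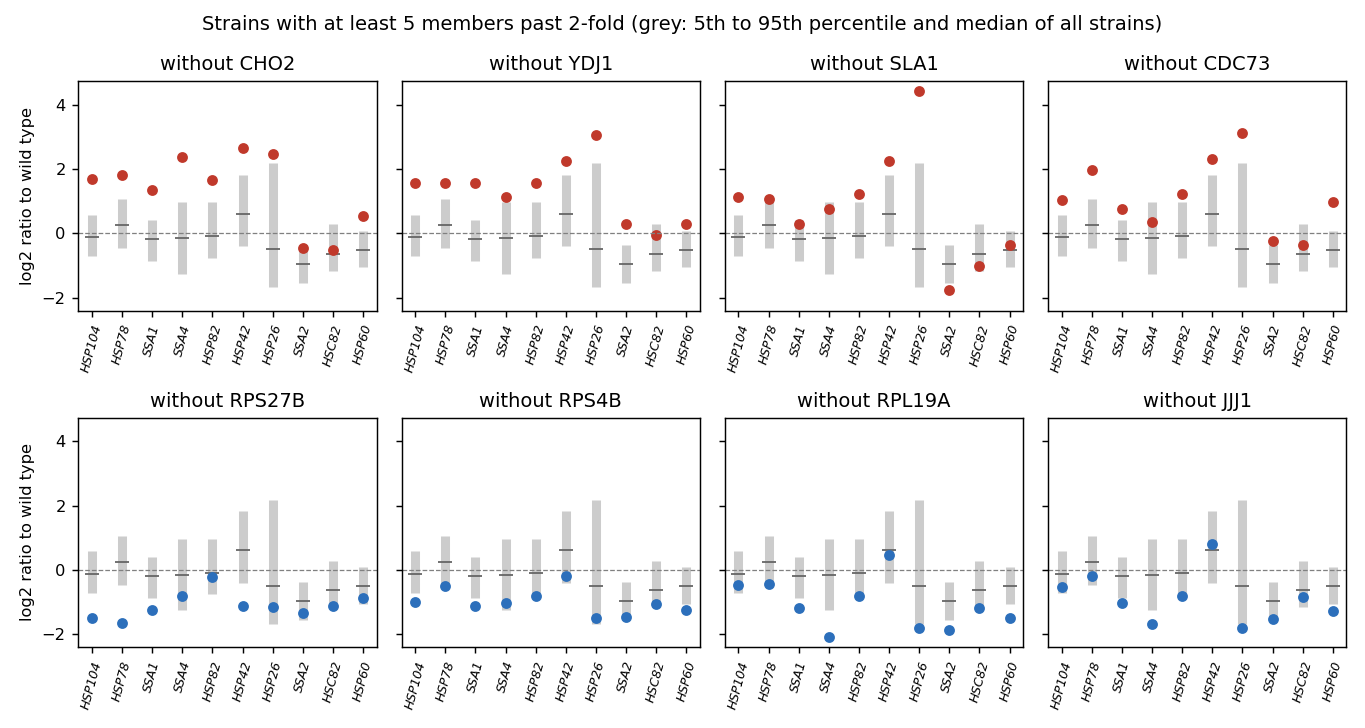
Each panel shows the log2 ratio to wild type of the 10 genes in 1 of the 8 strains with at least 5 members past 1 in the same direction (points), over the median and the 5th to 95th percentile of all strains (grey). In the upper strains HSP42 lies between 2.23 and 2.66 and HSP26 between 2.48 and 4.41, while HSC82 stays below wild type; in the lower strains every member lies below its median except HSP42 without JJJ1, at 0.79.

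Counting members past 1 in a single library singled out 8 strains; the count is a description with no test, since each strain has 1 library. A total of 99 strains had at least 1 member above 1, 222 had at least 1 below -1, and 64 had none past 1 in either direction. CHO2 and YDJ1 strains had 7 members above 1, SLA1 and CDC73 strains 5. The strain without CHO2 had HSP42 at 2.66, HSP26 at 2.48, SSA4 at 2.38, HSP78 at 1.80, HSP104 at 1.68, HSP82 at 1.65 and SSA1 at 1.36, but SSA2 at -0.45 and HSC82 at -0.50. The strain without SLA1 had 5 members above 1 and also SSA2 (-1.77) and HSC82 (-1.02) below -1. In the CHO2, SLA1 and CDC73 libraries 6.69%, 11.98% and 4.35% of all genes were above 1. SSA2, HSC82 and HSP60 were not above 1 in any strain, so the members above 1 in these 4 libraries could only be among the other 7 genes.

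At the low end the strains without RPS27B and RPS4B had 7 members below -1, the strain without RPL19A had 6 and the strain without JJJ1 had 5. The strain without RPS27B was the lowest of all strains for HSP104 (-1.51), HSP78 (-1.64) and SSA1 (-1.26), but had HSP82 at -0.21; chromosome XI, which holds none of the 10 genes, was shifted in that library. The strain without RPL19A was the lowest for SSA4 (-2.07) and HSP60 (-1.50) and had HSP42 at 0.46. In the RPS27B and RPL19A libraries 9.23% and 8.92% of all genes were below -1. That share is not given here for the RPS4B library. Over all strains, 7.87% of the values of all genes were below -1. Some members were often there: SSA2 in 44.8% of strains, HSP26 in 24.7% and HSC82 in 17.7%, which adds to these counts.

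Strains of pathways known to act on stress genes are given by name. RAS2 and GPA2 act upstream of protein kinase A, and GPB2 restrains it. HSP26 was -1.50 without RAS2, -1.62 without GPA2 and -2.03 without GPB2, and HSP42 was -0.18, 0.056 and -0.87 in the same strains. All 3 strains were thus in the lower part of the HSP26 range, at ranks 303, 309 and 324 of 328 from the highest. RAS2 and GPB2 were in library group 1 and GPA2 in group 2. The HSP26 medians of these groups were -0.78 and -0.87, against -0.48 and 0.26 in groups 3 and 4. The part of the library group in these ranks was not tested. The strain without RPN4 was the highest for HSC82 (0.99) and among the 3 highest for SSA2 (-0.021), with HSP104 at 0.18, SSA1 at 0.40 and HSP26 at -1.16. Its strain median was -0.42, and relative to it HSC82 was at 1.41. The strain without UBC4, a ubiquitin-conjugating enzyme, had HSC82 at 0.37 and HSP26 at 0.83, and the library labelled UBP3, a ubiquitin protease gene (own mRNA at -0.010), had HSP42 at 1.66 and HSP26 at 1.20. Strains without the sugar metabolism genes HXK2 and TPS1 had HSP42 at 0.35 and 1.05 and HSP26 at -0.72 and -1.34.

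A few values lie on altered chromosomes or beside a deletion. Chromosome IV was shifted by 0.83 and 0.81 in the strain without RPP1A and the library labelled PEP8, where HSP78 was 1.23 and 1.03 and HSP42 was 1.57 and 1.56. Chromosome V was shifted by 0.83 and 0.70 in the strains without SWI6 and SIN3, where SSA4 was 0.95 and 1.70. The SSA4 value of the SIN3 strain is thus one of its 3 highest on a shifted chromosome, and the part of the shift in it was not tested. Of 7 strains deleted within 5 reading frames of a member, VPS8 had SSA1 at 0.57, ECM8 had HSP26 at 1.69, HMO1 had HSP42 at 0.82 and SSO2 had HSC82 at -0.21. FRA1 had HSP104 at -0.15 and SSA2 at -0.90, and VPS63 and RPS28B had HSP60 at -0.90 and -1.08.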

How the data were processed

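The authors deposited 2 tables of log2 ratios, 255 and 73 strains, each strain relative to the wild type strain per the labels' series design. The tables do not state the base. Base 2 was assumed, since the largest shift of a whole chromosome was 0.958, whereas a 2-fold change is 0.693 in natural and 0.301 in decimal logarithms. Bowtie is named per the submitters' processing notes; its version, the genome build, the counting, the normalization and the number of wild type libraries are not stated in the sources used here. Depth is therefore unknown, and no interval that needs it is printed.

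The second table holds no gene column and was matched to the first by position (gene means correlated at 0.979 with no offset, and at most at 0.0463 with offsets of up to 5). Empty cells stayed missing. Each class was compared with other deletions in 1 limma fit (limma 3.58.1, R 4.3.3; lmFit and eBayes) over all groups and the 4499 genes measured in at least 80% of strains, with Benjamini-Hochberg adjustment and a threshold of 0.05. The fit takes 1 spread per gene over all groups, so the error is understated where a class varies more than the rest. A value past 1 or -1 marks a single strain. Library groups came from a Gaussian mixture with 4 components on 4 principal components (10 starts), with the members and listed genes left out. Motifs, coordinates and sequences come from the RefSeq annotation of the R64 genome; the files carry no coordinates. Python 3.11.15, numpy 2.4.6, pandas 2.3.3, scikit-learn 1.9.0, Biopython 1.88 and matplotlib 3.10.9 were used.

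Classes follow the known function of the gene named in each strain label. The members, classes and gene lists were chosen with earlier results of these data known. Named were the 10 members, each member and class pair past the threshold, the 3 highest and 3 lowest strains and the 3 most correlated genes per member, 14 strains listed by their deleted gene, and strains deleted within 5 reading frames of a member. Strains with at least 5 members past 1, the elongation and endoplasmic reticulum insertion classes, ASC1, strains on shifted chromosomes, and listed genes past the threshold were singled out after their values were seen. Sorting the pairs of members by AGGGG was not part of the original plan. Other settings tried were centring, genes without missing values, the table or library group as a term, a variance trend, all other strains as the reference, and leaving out strains. The fit was tested on simulated shifts among random other deletions, over 4499 genes. With 18 strains it found 75% of shifts of 0.5 and 100% of shifts of 1, and with 4 strains 11% and 62%. It also called genes to which no shift was added: 15 with 18 strains and 0 with 4.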

Additional observations from a re-analysis of the deposited data

Results flagged for a closer look

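For each member and each class of 4 to 10 strains, the highest or lowest strain was set against the rest of its class (80 checks). A pair of values stood apart from the rest of its class by more than a 95% critical value, which chance exceeds in about 1 in 20 groups, so this number of values is below what chance gives.

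SSA1 in the library labelled GET2, whose own mRNA was not lowered (-0.035), was -0.088, while the other 3 endoplasmic reticulum insertion strains had 0.53 to 0.60. HSP78 in the strain without TMA23, a ribosome assembly factor, was 0.947, while the next highest strain of that class had 0.343 and the lowest -0.0083.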

How the results depend on the processing

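HSP104, HSP78, SSA1 and HSP60 were lower in strains without a small subunit protein under all 10 other settings and without any 1 strain, with differences of -0.60 to -0.39, -0.77 to -0.59, -0.54 to -0.38 and -0.44 to -0.21 over the settings. HSP82 was no longer called with strains centred on their medians (-0.38, adjusted p = 0.0552), without strains with a shifted chromosome (-0.42, 0.0531) or without strains deleted near a member (-0.44, 0.0650), and without each of 7 single strains; over all single omissions it ran from -0.51 to -0.42. HSC82, not called, turned its sign with the library group as a term (-0.18), with the library group as a term and centring together (-0.14; 0.091 with centring alone), against all strains outside the class (-0.0125), without libraries whose deleted gene was not lowered (-0.0063), without strains deleted near a member (-0.0139) and in 6 single omissions, whose full range was -0.022 to 0.062; the cause was not tested.

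Of all genes tested, 1.67% were lower in strains without a small subunit protein, 0.533% with centring, 0.734% without strains deleted near a member, 2.93% without libraries whose deleted gene was not lowered, and 0.445% (without RPS29A) to 3.51% (without RPS19B) in single omissions; higher genes numbered 18, 17, 4, 25 and 4 to 41. The members called stayed at 4 or 5. In the elongation, ribosome assembly, Elongator or URM1, recombination and vacuolar sorting classes together, 1 member (HSP60, elongation) was called with the library group as a term, with or without centring, in place of 0. In small against large subunit strains 2 were called with that term in place of 0. The combined setting and this contrast were added after seeing the data. Single omissions were run for the elongation class but not for the other 4 of those 5. No paired analysis was possible because replicate numbers only count strains with different deletions. A setting for low values was not run, since no levels are given. Depth is unknown, and 1 library per strain leaves single strains without an error.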
